A study of Rattus norvegicus with 40 samples.

Results

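The T-cell and cytotoxic lymphocyte genes described here are the 10 rat genes Cd3d, Cd3e, Cd3g, Cd8a, Cd8b, Cd4, Cd2, Cd5, Gzmb and Nkg7, listed by symbol and found on the array through the RefSeq accession of each probe. All 10 were present among the 16581 genes named on the array, with 12 probes in all, and each gene was represented by the probe with the highest mean level over the 36 primary arrays. RNA came from hippocampal slices of 12 male Long-Evans rats, measured on one-colour Agilent arrays. The rats were young (Y, 5 to 6 months), aged unimpaired (AU) or aged impaired (AI), with 4 rats each, and the aged rats were 25 to 26 months old by the sample labels and 24 to 25 months by the protocol. The split of the aged rats into AU and AI came from their spatial learning in a water maze, with young performance as the yardstick. Slices of each rat were divided among sham, 1Hz and intermittent theta burst (iTBS) magnetic stimulation, so each of the 9 groups holds 1 array from each of 4 rats. All slices were kept in artificial cerebrospinal fluid, and RNA was collected 1 hour after treatment by the sample labels and 2 hours by the protocol.

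T cells recognise antigen through a receptor that signals through the CD3 chains, with CD4 or CD8 as a coreceptor for MHC class II or class I molecules. Cytotoxic T cells and natural killer cells carry granules with proteases such as granzyme B. Healthy brain tissue holds few lymphocytes, and in the rat CD4 is not restricted to T cells, since monocytes, macrophages and activated microglia can carry it too. MHC class II molecules present antigen to CD4 T cells and, with complement components, are made by microglia when activated. The question addressed was whether the lymphocyte genes were also high on the arrays where MHC class II and complement genes were high.

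Levels below are z-scores of the log2 signal within an array, multiplied by the mean standard deviation of the arrays, so that 0 is the mean feature of the array and a difference of 1 is about 1 log2 unit. Levels of different genes come from different probes and are not comparable with each other. The tissue was hippocampal by the protocol. All 9 hippocampal neuron genes listed were well above background on all 36 arrays, and so were all 12 microglia genes and all 4 astrocyte genes. Markers of other regions were not read, and most probes were well above background, so this detection does not identify the region. The share of probes well above background ranged from 67.4% to 90.5% per array, with medians of 79.8% and 86.5% on slides 1 and 2 and of 71.1% to 72.3% on slides 3 to 5. In tissue samples of this kind, fewer cells of a type and less RNA per cell cannot be told apart.

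The MHC class II and complement genes were high on 7 arrays. The mean level of 10 MHC class II genes was 2.89 to 3.22 on the 3 arrays of rat AI1, 0.32 to 2.00 on the 3 arrays of rat AI4 and 2.96 on the array labelled Y sham, rat Y2, whereas the other 29 arrays lay between -1.94 and -0.07. The mean level of 10 complement genes separated the same arrays, at 5.49 to 5.86 in AI1, 3.36 to 4.60 in AI4, 5.44 on the array labelled Y sham, rat Y2, and 1.01 to 2.54 on the other 29.

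The array labelled Y sham, rat Y2, stood apart from the other arrays of its rat. On 500 probes that differed most between the other 10 rats, leaving out probes that followed the MHC class II level there, this array correlated at 0.529, 0.684 and 0.715 with the sham, 1Hz and iTBS arrays of rat AI1, and at 0.375 and 0.407 with the 1Hz and iTBS arrays of rat Y2. Its own rat's arrays lay on the same slide, and 2 of the 3 AI1 arrays lay on another. After each probe was centred within its slide the correlations were 0.391, 0.465 and 0.551 with AI1, and -0.024 and -0.269 with Y2. By the same measure 33 of the 36 arrays were nearest to their own rat, and the exceptions beside this one were the Y iTBS array of rat Y2 and the AI sham array of rat AI2, each nearest to rat AU2 (0.604 against 0.602 for its own rat, and 0.509 against 0.210). The probes were picked to separate the other 10 rats on their own 30 arrays, so for those arrays this outcome was largely fixed in advance. Only the arrays of rats Y2 and AI1 played no part in the choice. The array was kept under its label, and the main slopes and the Cd4 comparisons were also fitted without it. Unless stated otherwise, the slopes with slide as a term, with the rat as a fixed block or in sham arrays alone include it.

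Detection set a limit on what could be compared. Cd3d, Cd3g, Cd4 and Nkg7 were well above background on all 36 arrays, Cd8b on 34, Cd3e on 25, Gzmb on 19, Cd5 on 16, Cd2 on 6 and Cd8a on 3. A level that is not well above background is only a bound. The median number of members well above background was 6.5 on Y arrays, 7 on AU arrays and 7 on AI arrays. Detection differed by slide. Cd5 was well above background on 15 of the 16 arrays of slides 1 and 2 and on 1 of the 20 arrays of slides 3 to 5, Gzmb on 14 of 16 and 5 of 20, Cd3e on 16 of 16 and 9 of 20, and Cd2 on 5 of 16 and 1 of 20. Rat AI1 and the array labelled Y sham, rat Y2, lay on slides 1 and 2, and rat AI4 lay on slide 5. On slide 5 Cd3e was well above background on 4 of 4 arrays. Slopes fitted with slide as a term are given after the others.

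**Figure D1:**
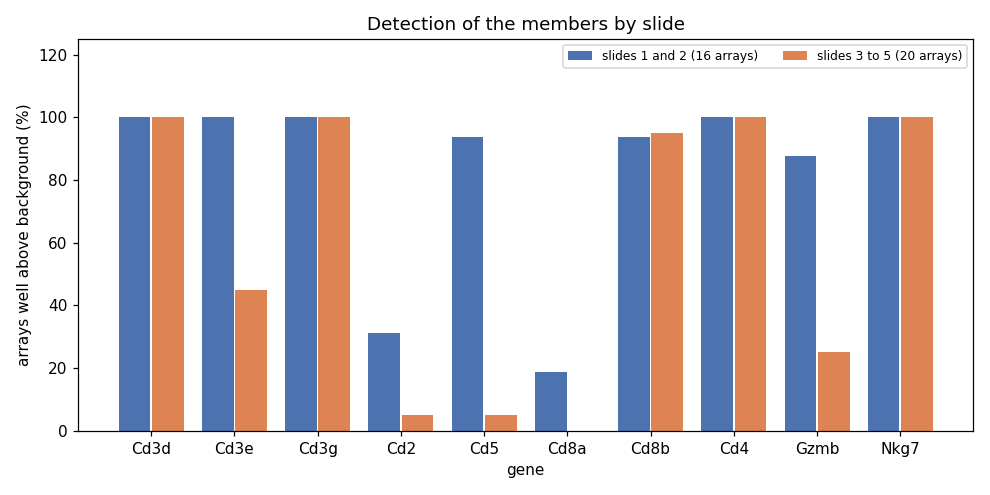
Percentage of arrays on which each member was well above background (y axis), for the 16 primary arrays of slides 1 and 2 (blue) and the 20 of slides 3 to 5 (orange). Cd3d, Cd3g, Cd4 and Nkg7 were at the full percentage on both, whereas Cd5, Gzmb, Cd3e, Cd2 and Cd8a were found more often on slides 1 and 2.

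Cd3d, Cd3e and Cd3g encode the CD3 delta, epsilon and gamma chains, which are the defining markers of T cells. The start sites used for the Cd3g and Cd3d windows lie 1601 bases apart on opposite strands of chromosome 8 in the GRCr8 assembly. The RefSeq promoter windows of the 3 CD3 genes, from 250 bases before to 50 after the start, are shown since these genes define the lineage asked about. The ETS core AGGAAG and the E-box CACCTG are in capitals on either strand, and neither overlaps the other here.
Cd3d, chr8:54185269-54185568, plus strand: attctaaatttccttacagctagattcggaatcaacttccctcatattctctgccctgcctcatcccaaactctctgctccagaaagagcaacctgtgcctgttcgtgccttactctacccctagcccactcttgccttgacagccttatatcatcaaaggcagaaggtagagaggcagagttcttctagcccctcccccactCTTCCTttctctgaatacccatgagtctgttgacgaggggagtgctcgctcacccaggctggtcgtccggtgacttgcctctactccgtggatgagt
Cd3e, chr8:54211721-54212020, minus strand: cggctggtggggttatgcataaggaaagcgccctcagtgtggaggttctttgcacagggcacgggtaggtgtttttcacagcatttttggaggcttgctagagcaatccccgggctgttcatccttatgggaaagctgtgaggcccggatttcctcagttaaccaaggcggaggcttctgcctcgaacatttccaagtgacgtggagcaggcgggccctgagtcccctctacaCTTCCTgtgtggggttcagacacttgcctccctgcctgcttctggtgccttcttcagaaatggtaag
Cd3g, chr8:54183869-54184168, minus strand: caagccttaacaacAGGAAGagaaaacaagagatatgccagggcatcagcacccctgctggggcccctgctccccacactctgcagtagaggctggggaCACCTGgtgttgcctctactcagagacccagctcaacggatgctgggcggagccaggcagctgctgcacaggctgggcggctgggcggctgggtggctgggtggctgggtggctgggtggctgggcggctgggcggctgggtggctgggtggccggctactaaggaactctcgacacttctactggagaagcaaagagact
AGGAAG was found in 6 of the 8 member promoters given by RefSeq and in 34.5% of all 33469 promoters of this length, CACCTG in 2 of 8 and 18.8%, and the RUNX core TGTGGT in 3 of 8 (Cd2, Gzmb and Nkg7) and 17.3%. These matches are a description of the letters in the windows.

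The CD3 genes did not separate the 7 arrays from the other 29. Cd3d varied little, from -0.24 to 0.20 on the other 29 arrays, 0.01 to 0.32 in AI1, 0.06 to 0.19 in AI4 and 0.26 on the array labelled Y sham, rat Y2, so that the AI1 sham array and that array were the highest and the other 5 lay inside the range of the rest. Cd3g was -4.05 to -0.96 on the other 29 arrays, -2.07 to -1.44 in AI1, -1.98 to -1.44 in AI4 and -1.78 on that array, within the range of the rest in every case. Cd3e had the widest range of the members, from -5.62 to 1.18 on the other 29 arrays, where 18 were well above background. It was -0.16, -0.84 and -2.66 in the sham, 1Hz and iTBS slices of AI1, 0.06, -2.96 and -2.40 in those of AI4, and -2.73 on the array labelled Y sham, rat Y2, again inside the range of the rest. Cd3e was well above background on all 7 of these arrays, which lay on slides 1, 2 and 5. It was so on every array of those slides (8 of 8, 8 of 8 and 4 of 4), against 1 of 8 on slide 3 and 4 of 8 on slide 4.

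Cd4 encodes the coreceptor of helper T cells, and it was high on the 7 arrays. Cd4 was 5.60, 5.29 and 5.43 in the sham, 1Hz and iTBS slices of AI1, 3.15, 4.38 and 4.05 in those of AI4, and 5.39 on the array labelled Y sham, rat Y2. The other AI rats had 2.92, 1.96 and 1.80 (AI2) and 1.48, 1.65 and 1.75 (AI3) in the same order. In the AU rats Cd4 was 2.73, 3.09 and 3.35 (AU1), 3.04, 2.85 and 2.58 (AU2), 2.21, 2.51 and 2.14 (AU3) and 1.88, 1.81 and 1.60 (AU4). The 7 arrays were above all others except that the AI4 sham slices, at 3.15, were below the highest of the rest, the AU1 iTBS slices at 3.35. In the young rats the values were 2.59, 2.67 and 2.39 (Y1), 2.39 and 3.03 for the 1Hz and iTBS slices of Y2, 1.74, 1.93 and 1.62 (Y3) and 1.56, 2.14 and 2.03 (Y4). A second Cd4 probe, designed to another transcript record, showed the same arrays without overlap, at 0.42 to 1.68 in AI1, -1.55 to 0.43 in AI4, 0.77 on the array labelled Y sham, rat Y2, and -4.50 to -1.90 on the other 29. The share of all probes that separate the 7 arrays in this way was not computed.

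Cd8a and Cd8b encode the chains of the coreceptor of cytotoxic T cells. Cd8b was -2.39 to -1.88 in AI1, -3.83 to -2.09 in AI4, -1.90 on the array labelled Y sham, rat Y2, and -3.10 to -1.45 on the other 29. The lowest of its 35 values was thus an AI4 array, the sham slices, where it was not well above background. Cd8a was well above background on 2 of 12 Y arrays, 0 of 12 AU arrays and 1 of 12 AI arrays, and these 3 were the Y sham and Y iTBS arrays labelled rat Y2 and the AI1 iTBS array, all on slide 2. Its highest level, -3.74, was on the array labelled Y sham, rat Y2.

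Cd2, an adhesion receptor of T and natural killer cells, was well above background on 1 array of AI1, 1 of AI4, the array labelled Y sham, rat Y2, and 3 of the other 29. Its highest level was -3.25 in the iTBS slices of AI4, with -4.13 in its 1Hz and -5.15 in its sham slices, so that the 3 arrays of this rat spread over most of the range of the series, -5.79 to -3.25. Cd5, a receptor that dampens T-cell receptor signalling, was -3.27 to -2.92 in AI1, -4.58, -4.63 and -2.97 in the sham, 1Hz and iTBS slices of AI4 and -3.57 on the array labelled Y sham, rat Y2. On the other 29 arrays Cd5 reached -2.87, in the iTBS slices of rat Y2, above all 7.

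Gzmb, the granzyme B protease of cytotoxic granules, was -3.68 to -2.76 in AI1, -4.37 to -3.28 in AI4, -2.83 on the array labelled Y sham, rat Y2, and -5.50 to -2.23 on the other 29. Its second probe did not follow the MHC class II level either, with -4.38 to -3.83 in AI1 and -4.94 to -2.82 on the other 29. Nkg7, a granule membrane protein of natural killer and cytotoxic T cells, was -1.77 to -1.41 in AI1 and -1.81 on the array labelled Y sham, rat Y2, inside the range of -2.54 to -0.61 on the other 29. In AI4 it was 0.43 in the sham slices, -0.40 in the 1Hz and -1.21 in the iTBS slices, and the first 2 of these were the highest Nkg7 levels of the series.

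**Figure D2:**
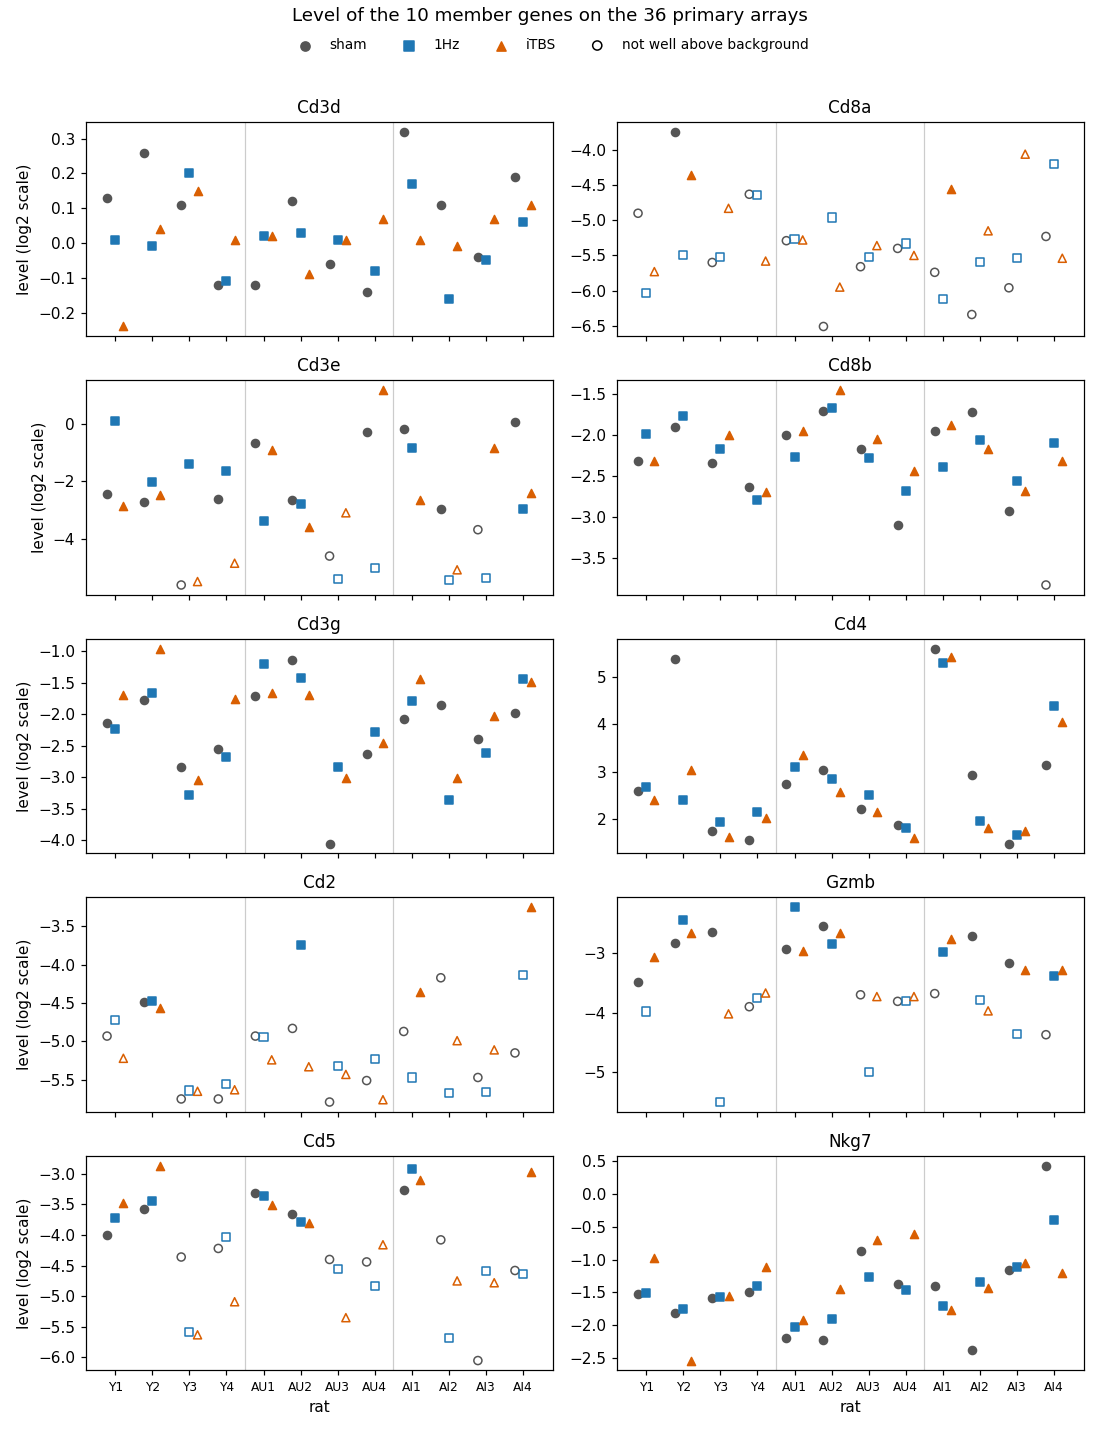
Level of each member (y axis, log2 scale, different for each panel) on the 36 primary arrays, by rat (x axis) and treatment (grey circle sham, blue square 1Hz, orange triangle iTBS), with open symbols where the probe was not well above background. Cd4 was high in all 3 slices of AI1, in AI4 and on the array labelled Y sham, rat Y2, and no other panel shows that set of arrays.

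To put a test beside these levels, each probe was regressed on the MHC class II level with the 9 group means and the rat as a random block (limma, 40740 probes, Benjamini-Hochberg adjustment over all of them). Of the 9 members tested, 1 was called, Cd4, where 5.89% of all probes tested were called and 3.19% were called with a positive slope (18.1% had an unadjusted p under 0.05). Cd4 rose by 0.75 log2 units per unit of the MHC class II level (SE 0.08, limma adjusted p 2.14e-08), and its second probe by 0.99 (SE 0.08, adjusted p 1.22e-10). Without the array labelled Y sham, rat Y2, these slopes were 0.88 (SE 0.11, adjusted p 3.19e-06) and 1.09 (SE 0.11, adjusted p 1.64e-07), while the number of probes called in all fell from 2399 to 903.

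The remaining 8 members tested were not called. The slope of Cd3d was 0.04 with a 95% interval of -0.01 to 0.09, that of Cd3g 0.14 (-0.06 to 0.34) and that of Cd3e 0.40 (-0.12 to 0.91). Those of Cd8b, Cd2 and Cd5 were 0.11 (-0.04 to 0.26), 0.16 (-0.01 to 0.33) and 0.17 (-0.08 to 0.43), and those of Gzmb and Nkg7 were 0.03 (-0.21 to 0.28) and 0.00 (-0.18 to 0.17). Without the array labelled Y sham, rat Y2, none of them was called either, with slopes of 0.71 for Cd3e (SE 0.37), 0.41 for Cd5 (SE 0.18) and 0.27 for Cd3g (SE 0.14), and limma adjusted p of 0.335 or more for the 8. As a description over 36 arrays that share rats and slides, deviations from the group means correlated with those of the MHC class II level at 0.910 for Cd4, 0.519 for Cd3d, 0.507 for Cd5, 0.414 for Cd3e, 0.405 for Cd3g, 0.403 for Cd2, 0.270 for Cd8b, 0.207 for Gzmb and -0.071 for Nkg7.

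The calls of members other than Cd4 depended on the scaling. With arrays scaled to their 75th percentile, Cd2, Cd3d, Cd3g, Cd5 and Cd8b were called beside Cd4, with slopes of 0.43, 0.14, 0.39, 0.49 and 0.28 and limma adjusted p of 0.0240, 0.0294, 0.0417, 0.0421 and 0.0373, where the number of probes called in all was 6909. With slide as a fixed term the slope of Cd4 was 0.67 (SE 0.06, adjusted p 1.99e-09) and no other member was called, with slopes of 0.25 for Cd3e (SE 0.20), 0.04 for Cd3d, -0.01 for Cd3g, 0.06 for Cd5, 0.02 for Cd2, 0.01 for Cd8b, -0.09 for Gzmb and 0.07 for Nkg7. Slide 5 holds only the arrays of AI4 and the AU4 iTBS array. The slide term and what sets AI4 apart can therefore hardly be told apart in this fit. Cd5 was also called without the rat block (0.35, adjusted p 0.0359) but had a slope of -0.14 with the rat as a fixed block.

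The slope of Cd4 rested on the rats with a high MHC class II level. Without the array labelled Y sham, rat Y2, and rat AI1 it was 0.82 (SE 0.18, limma adjusted p 0.0521) and that of the second probe 1.09 (SE 0.19, adjusted p 0.00373), while on the complement level the first was called there, at 0.95 (SE 0.21, adjusted p 0.0290). Without AI4 as well the slope of the first on the MHC class II level was 0.32 (SE 0.33, adjusted p 1.00), on arrays that span a much narrower range of that level. With the rat as a fixed block, which uses only differences between slices of a rat, it was 0.58 (SE 0.08, adjusted p 0.000151). That fit includes the array labelled Y sham, rat Y2, and was not repeated without it. The MHC class II level was 2.96 on that array, against -1.61 and -1.94 on the 1Hz and iTBS arrays of rat Y2. In the 12 AI arrays alone the slope of the first Cd4 probe was 0.92 (SE 0.09, adjusted p 0.000188). In the 12 sham arrays alone, which include the array labelled Y sham, rat Y2, it was 0.76 (SE 0.10, adjusted p 0.00250).

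**Figure D3:**
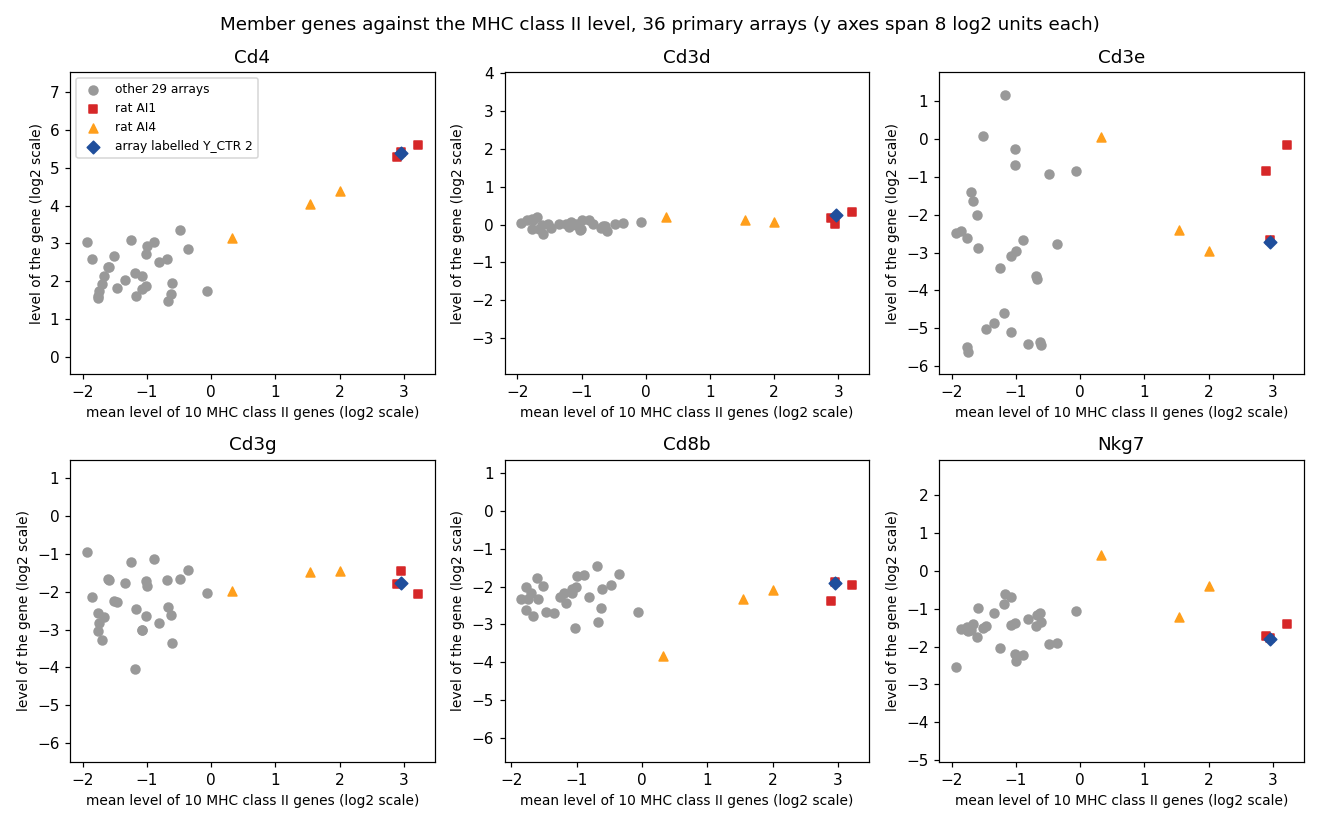
Level of 6 members (y axis, log2 scale, each panel spanning the same number of units) against the mean level of 10 MHC class II genes (x axis, log2 scale) on the 36 primary arrays, with rat AI1 in red squares, rat AI4 in orange triangles, the array labelled Y sham, rat Y2, as a blue diamond and the other 29 arrays in grey. Cd4 was higher where the MHC class II level was higher (slope 0.75), while Cd3d, Cd3g, Cd8b and Nkg7 had slopes of 0.04, 0.14, 0.11 and 0.00. The slope of Cd3e was 0.40 (95% interval -0.12 to 0.91), and its lowest levels were among the other 29 arrays.

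Regression on the complement level gave the same single call of 9 members, where 5.21% of all probes were called and 3.19% with a positive slope (17.1% had an unadjusted p under 0.05). The slope of Cd4 was 0.87 (SE 0.08, limma adjusted p 9.02e-09) and that of its second probe 1.14 (SE 0.09, adjusted p 1.10e-10). Without the array labelled Y sham, rat Y2, they were 0.99 (SE 0.12) and 1.22 (SE 0.13). The slopes of the other 8 members lay between 0.00 for Nkg7 and 0.34 for Cd3e, with adjusted p of 0.335 or more. The complement and MHC class II levels separated the same arrays, so these 2 regressions are not independent of each other.

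**Figure D4:**
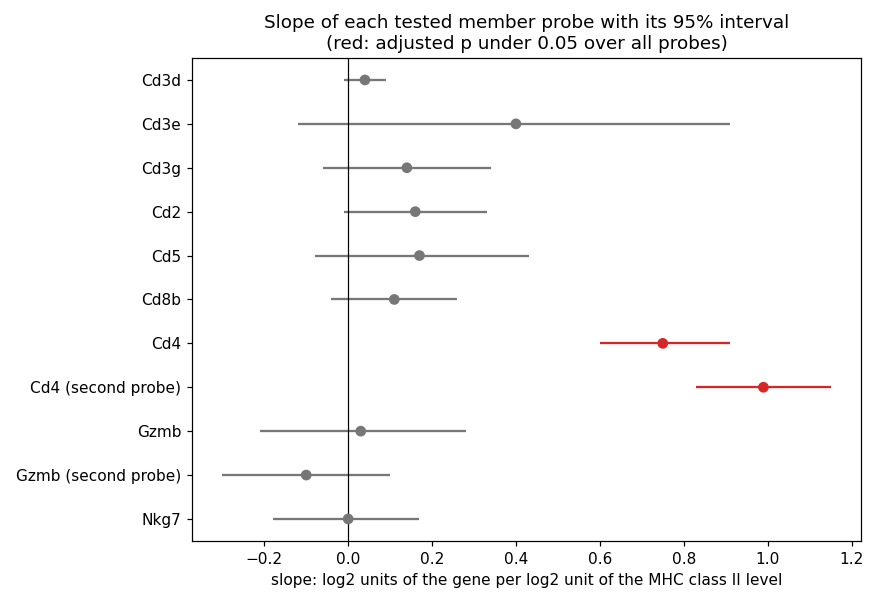
Slope of each tested member probe on the MHC class II level (x axis, log2 units per log2 unit) with its 95% interval, in red where the adjusted p over all probes was under 0.05. Both Cd4 probes lay at 0.75 and 0.99, and the intervals of the other probes included 0.

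Other lymphocyte genes, from lists of T-cell, cytotoxic and B-cell genes, were read the same way. Over all probes tested 5.89% were called on the MHC class II level and 3.19% with a positive slope, for comparison with the counts below. Of 23 other T-cell genes tested, 4 rose with the MHC class II level and none fell, and the median slope was 0.08 against -0.01 over all probes. They were Cd6, a T-cell surface receptor (0.51, SE 0.05, limma adjusted p 3.46e-08), Ptprcap, a partner of the leukocyte phosphatase CD45 (0.69, SE 0.07), Icos, a costimulatory receptor (0.98, SE 0.12), and Il7r, the interleukin 7 receptor alpha chain (0.32, SE 0.06). Icos was -0.05 to 1.14 in AI1, -1.61 to -0.09 in AI4, 0.12 on the array labelled Y sham, rat Y2, and -5.73 to -2.48 on the other 29, where 12 were well above background, so its 7 high arrays did not overlap the rest. Cd6 also did not overlap, at 2.72 to 4.45 on the 7 arrays and 1.00 to 2.52 on the other 29. How large a share of all probes separates these arrays was not computed. All 4 were also called without the array labelled Y sham, rat Y2. Without that array and rat AI1, Cd6 and Icos were not called (0.36 and 1.01, adjusted p 0.596 and 0.294), and neither was Il7r (0.15, adjusted p 1.00). With slide as a term all 4 were called, with slopes of 0.60 (Cd6), 0.63 (Ptprcap), 1.15 (Icos) and 0.33 (Il7r).

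The mean levels of the lymphocyte lists followed the 7 arrays in part. The mean of the 9 members tested was -1.41 to -1.28 in AI1, -1.79 to -1.42 in AI4, -1.50 on the array labelled Y sham, rat Y2, and -2.85 to -1.63 on the other 29, so AI1 and that array were above all of the rest. The mean of the 23 other T-cell genes was -1.36 to -1.23, -1.99 to -1.31, -1.25 and -2.21 to -1.58 in the same order, and again AI1 and that array did not overlap the rest. Both means were lower on slides 3 to 5, where the other arrays had medians of -2.59 and -2.07, than on slides 1 and 2, where they had -1.72 and -1.80. In a split chosen after the values were seen, the 8 members other than Cd4 had a mean of -2.25 to -2.14 in AI1, -2.41 to -2.10 in AI4, -2.36 on the array labelled Y sham, rat Y2, and -3.44 to -2.20 on the other 29, so the sets overlapped. The 19 other T-cell genes that were not called overlapped as well, at -1.93 to -1.68 in AI1, -2.30 to -1.73 in AI4, -1.72 on that array and -2.34 to -1.59 on the other 29. Both splits leave out the genes called on the MHC class II level of these same arrays. Overlap of the genes that remain was therefore largely fixed in advance. The other cytotoxic list lay at -3.04 to -2.63 in AI1, -3.37 to -3.09 in AI4, -2.83 on that array and -3.85 to -2.76 on the other 29, and the B-cell list at -1.36 to -1.14, -2.30 to -1.68, -1.09 and -3.23 to -1.24.

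Lck and Zap70, which act directly in T-cell receptor signalling, showed no such set of arrays. Lck, the kinase that phosphorylates the CD3 chains, was -2.58 to -1.55 in AI1 and -4.36 to -2.94 in AI4, against -3.43 to -1.39 on the other 29 arrays. Zap70, the kinase that binds them, was 0.07 to 0.64 in AI1 and 0.15 to 0.93 in AI4, against 0.20 to 1.22. Cd247, also on the T-cell list, was -4.80 to -3.92 in AI1 and -4.02 to -2.96 in AI4, with a median of -3.22 in AI4. It was -3.70 on the array labelled Y sham, rat Y2, and -6.28 to -3.45 on the other 29, where 6 were well above background. Its slope was 0.21 (SE 0.10, limma adjusted p 0.259). Cd40lg and Trat1 were not well above background on any array.

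Of 18 other cytotoxic genes tested, Ncr3, a receptor of natural killer cells, was the only one called (0.28, SE 0.06, limma adjusted p 0.00127), and it was not called without the array labelled Y sham, rat Y2 (0.27, SE 0.08, adjusted p 0.109) but was with slide as a term (0.32, SE 0.06). A single call among 18 genes is near the share over all probes, 5.89% called and 3.19% with a positive slope. Prf1, the pore-forming perforin, was -3.24 to -2.39 in AI1, -3.33 to -3.16 in AI4 and -5.43 to -2.38 on the other 29 arrays, and Klrd1 and Ifng were not well above background on any array. Ccl5, well above background on all 36 arrays, was -0.12 to 1.08 in AI1 (median 0.89) and 0.98 to 1.28 in AI4. It was -0.04 on the array labelled Y sham, rat Y2, and -2.28 to 0.61 on the other 29. Its slope was not called (0.26, SE 0.09, limma adjusted p 0.102). Of 5 B-cell genes tested, Cd22, a sialic acid binding receptor of B cells that microglia can carry as well, rose by 0.82 (SE 0.10, adjusted p 3.39e-07), by 1.03 (SE 0.13) without that array and by 0.79 (SE 0.08) with slide as a term.

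Myeloid and shared leukocyte genes moved with the same level. Of 12 microglia genes, 7 rose with the MHC class II level (among them Tyrobp, Aif1, Itgam, Csf1r, Trem2 and Tmem119), and of 10 genes shared by leukocytes 8 rose, among them Ptprc, which encodes CD45. Without the array labelled Y sham, rat Y2, 5 of the microglia genes were called (Tyrobp, Itgam, Aif1, Csf1r and Trem2), Tmem119 was not (0.18, SE 0.09, limma adjusted p 0.404), and 8 leukocyte genes were. The mean of the microglia list was 4.57 to 4.92 in AI1, 4.17 to 4.28 in AI4, 4.55 on the array labelled Y sham, rat Y2, and at most 3.82 on the other 29. The leukocyte list was 4.01 to 4.46, 3.21 to 3.60, 3.89 and 1.75 to 2.65 in the same order. Their part in the Cd4 result was not tested. Of the border macrophage genes 1 of 6 rose (Folr2, 0.28, SE 0.05) and of the blood myeloid genes 1 of 7 (Plac8, 1.52, SE 0.14), both also without that array (0.35 and 1.60). Of 4 astrocyte genes 1 rose, Gfap, the intermediate filament of astrocytes (0.47, SE 0.07, limma adjusted p 7.09e-05, and 0.0227 without that array). Of 6 choroid plexus genes 1 rose, Folr1, a folate receptor (0.49, SE 0.15, adjusted p 0.0447, and 0.420 without that array). None of 8 erythroid, 9 meningeal and 9 hippocampal neuron genes was called.

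The genes whose levels were most like the mean of the 3 CD3 genes, by the correlation of deviations from the group means over the 36 arrays, were on none of the T-cell, cytotoxic or B-cell lists. Whether lymphocytes express them was not examined. The mean was taken without scaling each gene, so Cd3e weighs most in it. Cd3e ranged from -5.62 to 1.18 and was well above background on 25 arrays, whereas Cd3d ranged from -0.24 to 0.32. The ranking therefore speaks mainly for Cd3e. Among 15358 genes compared with the mean of Cd3d, Cd3e and Cd3g, the highest included Ybx1 (r = 0.782), Hdc (0.781), Irf3 (0.775), Cotl1 (0.773), Ppl (0.773), Tph2 (0.759) and Aoah (0.755). For Cd4, a comparison chosen after its values were seen, they were Fcer1g (0.960), Grn (0.955), Ptprcap (0.955), Cd22 (0.954), Psme1 (0.946), Tmem176b (0.946), Itgam (0.941) and Epsti1 (0.939). These values describe 36 arrays that share rats and slides, and they changed little without the array labelled Y sham, rat Y2 (0.769 to 0.781 and 0.928 to 0.955 for the genes named).

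Stimulation was compared with sham within each age group (limma, 32560 probes). No member and no probe was called in any of the 6 comparisons, so the background share was 0% in each, and an unadjusted p under 0.05 was reached by 0.928% (Y 1Hz), 2.21% (Y iTBS), 1.71% (AU 1Hz), 2.35% (AU iTBS), 0.7% (AI 1Hz) and 0.713% (AI iTBS) of the probes tested. The 6 members tested were Cd3d, Cd3e, Cd3g, Cd4, Cd8b and Nkg7, and none had an unadjusted p under 0.05. The 1Hz and iTBS comparisons of an age group share its sham arrays. No member was called either when the rat was added as a block, fixed or random.

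Cd3e gave the largest differences of the members tested, in the 1Hz comparisons. Probes were tested here if well above background on all 4 arrays of a group, and Cd3e met this only in the Y 1Hz group. Cd3e thus entered through the group where its mean was highest (-1.24), which tilts the Y 1Hz difference upward. In the young rats it was -2.44, -2.73, -5.62 and -2.62 in sham slices of Y1 to Y4 and 0.09, -2.01, -1.41 and -1.63 in 1Hz slices, with a difference of 2.11 (SE 1.17, limma adjusted p 1.00). It was higher in the 3 rats in which both arrays were well above background, and the sham value of Y3 was not. In the AU rats it was -0.68, -2.66, -4.61 and -0.27 in sham and -3.40, -2.78, -5.41 and -5.02 in 1Hz slices (-2.10, SE 1.17, adjusted p 1.00), lower in the 2 rats with both arrays well above background. Neither array of AU3 was, nor the 1Hz array of AU4. In the AI rats it was -0.16, -2.96, -3.69 and 0.06 in sham and -0.84, -5.44, -5.37 and -2.96 in 1Hz slices (-1.96, SE 1.17, adjusted p 1.00), lower in the 2 rats with both arrays well above background. Neither array of AI3 was, nor the 1Hz array of AI2. The differences therefore rest in part on values that are only bounds. None of the 3 differences exceeded the spread between rats by this test.

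Cd4 in young slices shows what the array labelled Y sham, rat Y2, does to a comparison. The change from sham to 1Hz was 0.07, -3.00, 0.19 and 0.58 in rats Y1 to Y4, and the group difference was -0.54 (SE 0.84) with that array and 0.32 (SE 0.82) without it. For iTBS it was -0.55 (SE 0.84) with and 0.30 (SE 0.82) without it. In the AU and AI rats the 4 Cd4 differences lay between -0.04 and 0.10, each with an SE of 0.84. Cd3d, the steadiest member, differed from sham by -0.14 to 0.05 over the 6 comparisons, each with an SE of 0.11. Nkg7 differed by 0.50 (SE 0.41) in AU iTBS slices, where it was higher in 4 of 4 rats, with an adjusted p of 1.00.

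Age groups were compared on the mean of the 3 arrays of each rat (limma, 40740 probes). No member and no probe was called, and the background share was 0% in all 3 comparisons. Unadjusted values under 0.05 were found for 337 probes (0.827%) in AU against Y, 1521 (3.73%) in AI against Y and 1564 (3.84%) in AI against AU, and none of them was the chosen probe of a member. All 9 members tested overlapped between the age groups in every comparison. The share of all probes that overlapped was not computed, so this is not a result about the members. Cd4 had the widest spread, with a mean of 3.29 ± 1.72 (SD, n = 4 rats) in AI, 2.48 ± 0.58 in AU and 2.46 ± 0.84 in Y. The difference of AI against Y was 0.83 (SE 0.72, limma adjusted p 1.00), and 1.06 (SE 0.68) without the array labelled Y sham, rat Y2. Its second probe differed by 1.79 (SE 0.77, limma unadjusted p 0.0386), and by 2.19 (SE 0.76, adjusted p 0.807) without that array. In AI against AU this second probe differed by 1.7 (SE 0.77, limma unadjusted p 0.0481), and it was not called in either comparison. The CD3 genes differed between AI and Y by 0.03 (Cd3d, SE 0.12), 0.15 (Cd3e, SE 0.82) and 0.09 (Cd3g, SE 0.44), and the remaining 5 members by -0.16 to 0.36.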

How the data were processed

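RNA of hippocampal slices was hybridised to 40 one-colour rat arrays, of which 36 (9 groups, 4 rats each) were used. The other 4 repeat an array already present, and the labels of 2 of them conflict. The deposited scanner files give intensity per spot, background-subtracted by the authors with Agilent Feature Extraction. The authors also deposited a score per feature, in which each log intensity was standardised within its array. Standardised scores were recomputed here from 62976 features per array, differed from the deposited ones by at most 0.005, and were multiplied by 4.158, the mean SD of log2 intensity. Control spots and outlier-flagged spots were left out (490 values of the 36 arrays). Precision is limited by 4 rats per group.

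Probes were averaged to 45598, of which 21109 were named through the RefSeq accession (16581 genes). Stimulation was tested with limma 3.58.1 (R 4.3.3) on 9 group means over 32560 probes well above background on all 4 arrays of a group, age on rat means and slopes with the rat as a random block over 40740 probes well above background on at least 4 arrays, with Benjamini-Hochberg adjustment at 0.05. The correlation within rats, 0.392 in the slope fits, was estimated on every 10th probe. The rat numbers pair the arrays because the protocol divides slices of 1 animal among treatments, and deviations of same-rat arrays correlated at over 0.1 in 35 of 36 pairs (median 0.398). Most rats had all their arrays on a single slide, and pairs from different rats were not computed. These correlations therefore cannot tell a shared animal from a shared slide. The normexp alternative used the median signal, as the scanner files used here hold no mean signal. Named genes were the 10 members, genes of the other lists past the threshold (at most 6 per list and comparison), the MHC class II and complement lists, and the 8 genes most like the mean of the CD3 genes. Lck, Zap70 and Prf1 were named as defining markers, and Cd247 and Ccl5 beside them, all after their values were seen. Some genes that this rule names are not reported here. The members and lists were chosen with earlier results of these data known. The fits were tested on simulated data.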

Additional observations from a re-analysis of the deposited data

Results flagged for a closer look

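Within the groups of 4 arrays, 89 sets of a member and a group were searched for a value far from the others, of which chance marks about 5%, and 2 were found. Cd3e was -5.62 in the sham slices of rat Y3, where the other 3 young sham arrays lay between -2.73 and -2.44, and it was not well above background there. Cd2 was -4.13 in the 1Hz slices of rat AI4, where the other 3 AI arrays lay between -5.67 and -5.47, and none of the 4 was well above background.

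Cd3e differed from sham in opposite directions under 1Hz in young and aged slices by its measured values, none of them called. Where both arrays of a rat were well above background, it was higher in 3 of 3 young rats and lower in 2 of 2 AU and 2 of 2 AI rats. The direction cannot be read in AU3 and AI3, where neither array was well above background, and in 3 other rats it rests on 1 array that was not. The difference between the effects was 4.21 for Y against AU (SE 1.65, limma unadjusted p 0.0163, adjusted p 1.00) and 4.08 for Y against AI (SE 1.65, limma unadjusted p 0.0196, adjusted p 1.00). This test was chosen after the values were seen, 20 pairs of a member and a treatment were searched, and 207 and 246 probes in all had an unadjusted p under 0.05. Cd3e also entered the test only through the Y 1Hz group, where its mean was highest, which tilts both differences upward.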

How the results depend on the processing

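Cd4 kept its positive slope on the MHC class II level in all 28 alternatives and its call in 26. Leaving out each rat or the array labelled Y sham, rat Y2, gave 1 to 1 members called and Cd4 slopes of 0.68 to 0.90. Of 9 members tested, 6 were called with 75th percentile scaling. Without the replicate block 2 were called, Cd4 and Cd5, and with the rat as a fixed replicate block 1, with Cd4 at 0.58. In alternatives added after seeing the data, 0 were called on the MHC class II level without the array labelled Y sham, rat Y2, and rat AI1 (Cd4 at 0.82) and 1, Cd4, on the complement level, and 0 on either the MHC class II or the complement level without AI4 as well. The cause was not tested, although these fits hold fewer arrays.

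Signs turned for Gzmb (-0.03 with the mean of its probes, -0.09 with slide, -0.12 with the fixed rat block, -0.06 with slide and without the array labelled Y sham, rat Y2), Cd3g (-0.01 with slide, -0.03 with the fixed rat block) and Cd5 (-0.14 with the fixed rat block). Without that array, AI1 and AI4 they turned for Cd5 (-0.06), Cd3d (-0.01), Cd6 (-0.02), Il7r (-0.19) and Cd22 (-0.21). Cd4 in AU against Y ranged from -0.20 to 0.41 when each rat was left out, and was below 0 without Y3 (-0.20), Y4 (-0.16), AU1 (-0.16) or AU2 (-0.09), and at -0.35 in sham arrays alone.

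The number of members called stayed at 0 in the 14 alternatives of each stimulation comparison, replicate blocks included, and in the 19 of each age comparison. Probes called on the MHC class II level numbered 2399, against 6909 with 75th percentile scaling, 5612 without the replicate block, 4022 with normexp and quantile normalization, 1086 with the fixed rat block and 903 without the array labelled Y sham, rat Y2. Of the probes called on the complement level 61.2% had positive slopes, 47.1% with 75th percentile scaling and 47.5% with normexp. Scaling to the 75th percentile moved the median of all probes to -0.16 in AI against Y and -0.20 in AI against AU. Signal over background limits Cd2, Cd5, Cd8a, Cd3e and Gzmb most.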

Other observations

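Interferon response genes moved with the MHC class II level as well, with 9 of 14 called upward and none downward (Gbp2, Psmb9, B2m, Gbp5, Psmb8, Tap1, Irf8, Cxcl10 and Gbp4), and 8 of 14 without the array labelled Y sham, rat Y2. Their mean level was 2.37 to 2.99 in AI1, 1.79 to 2.15 in AI4, 2.41 on that array and 0.20 to 1.49 on the other 29. Of 9 meningeal genes none was called and all 9 slopes were below 0, with a median of -0.16. The erythroid genes were high in AI4 alone, with a mean level of 3.16 to 4.25, against 1.57 to 2.07 in AI1 and 0.99 to 2.86 on the other 29 arrays.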
